A study of Arabidopsis thaliana with 4 samples.

Results

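The wild-type stem base of Arabidopsis thaliana was described from 2 libraries, the WT replicates 1 and 2, out of 4 libraries in the series. The other libraries come from a mutant, and no genotype comparison was made. Genes were taken as every deposited row with a nuclear locus name and an exon length, which gave 27200 rows for 27198 loci. They were ranked by RPKM (reads per kilobase of exon per 1000000 reads in genes), averaged over both libraries. RPKM corrects for length and so allows levels to be compared between genes.

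The series asks which genes depend on MOL1, a receptor-like kinase of stem thickening, and the WT group is its control. The plants are labelled wild type of ecotype Col-0, with no treatment named. They grew on soil for 3 weeks in short days with 8 h of light at 21 °C, and then in long days with 16 h of light until they were 15 to 20 cm tall. Each sample was the lowest 1 cm of inflorescence stem, just above the rosette, from which polyadenylated RNA was sequenced. The labels do not say how many plants a library pools, so the spread between the libraries may be technical in part.

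The base of the inflorescence stem is the place where a primary stem turns into a woody one. From outside to inside it holds an epidermis coated with wax and cutin, a green photosynthetic cortex with a starch sheath, phloem, cambium, xylem, lignified fibres between the vascular bundles, and pith. Xylem vessels and fibres lay down a secondary wall of cellulose, xylan and lignin, and many of them then die. A bulk segment mixes all of these cells, and fewer cells of a type cannot be told apart from less RNA per cell.

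Reads in exons of the genes used numbered 30794836 in replicate 1 and 28017346 in replicate 2. Uniquely placed reads made up 97.1% of these in each library. Reads over exon junctions made up 16.5% and 16.7% of exon reads, and intron reads 0.417% and 0.419% of gene reads, in replicates 1 and 2. At this depth 1 RPKM of a gene with 1000 bp of exon rests on about 31.3 reads in replicate 1 and 28.5 in replicate 2. No library was left out.

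Most nuclear genes were detected, and few held a large part of the RNA. A mean of at least 1 RPKM was reached by 17432 genes, or 64.1% of all, and 17089 reached it in both libraries. The threshold of 10 RPKM was passed by 10302 genes, that of 100 by 1168 and that of 1000 by 46. No exon read was found for 4860 genes (17.9%) in either library. The median over all genes was 4.98 RPKM, and it was 13.4 RPKM over genes at 1 RPKM or more.

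The 30 most abundant genes held 11.5% of the summed RPKM, the first 100 held 20.6% and the first 1000 held 50.6%. The most abundant gene was LTP4 (AT5G59310), which encodes a small secreted lipid transfer protein. It had 7445 RPKM in replicate 1 and 5413 in replicate 2, a mean of 6429 ± 1437 (SD, n = 2). It ranked first in each library. Its neighbour LTP3 (AT5G59320), of the same family, had 1998 and 1921 RPKM.

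Next came PRXR1 (AT4G21960), a class III peroxidase gene, with 5118 and 4824 RPKM. CAT3 (AT1G20620) encodes a catalase, an enzyme that breaks down hydrogen peroxide, and had 3849 and 4414 RPKM. TCTP (AT3G16640), for the translationally controlled tumour protein, a conserved growth-related protein, had 4065 and 3482. The ranges of CAT3 and TCTP overlapped, so their order is not fixed by these libraries. The metallothionein genes MT2B (AT5G02380) and MT3 (AT3G15353), for small metal-binding proteins, had 2552 and 2262, and 2120 and 2081 RPKM. Only 21.3% of the MT2B reads were uniquely placed, so its level depends on how reads shared with other loci were counted.

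Several of the 30 belong to photosynthesis or to the wood programme. CAB1 (AT1G29930) and LHB1B2 (AT2G34420), which encode chlorophyll-binding proteins of photosystem II, held ranks 3 and 5. RBCS1A (AT1G67090), the main small subunit gene of Rubisco, and LHCA4 (AT3G47470), of photosystem I, were also among them. From wood formation came CCoAOMT1 (AT4G34050) and OMT1 (AT5G54160), both methyltransferases of lignin synthesis, and CTL2 (AT3G16920), a chitinase-like gene of secondary walls. CTL1 (POM1, AT1G05850), its counterpart in primary walls, had 1619 and 1811 RPKM.

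Another 5 of the 30, grouped here after their values were seen, encode enzymes that make or recycle S-adenosylmethionine, the methyl donor of lignin synthesis and many other reactions. SAM1 (AT1G02500) and SAM-2 (AT4G01850), both S-adenosylmethionine synthetases, had 2656 and 3395, and 1452 and 2109 RPKM in replicates 1 and 2. ATMS1 (AT5G17920), a methionine synthase gene, had 1617 and 2036 RPKM. The S-adenosylhomocysteine hydrolase genes HOG1 (AT4G13940) and SAHH2 (AT3G23810) had 1511 and 1835, and 1331 and 1797 RPKM. All 5 were higher in replicate 2, where 40.0% of all genes with at least 100 reads were. Together the 5 held 1.28% of the summed RPKM in replicate 1 and 1.72% in replicate 2.

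Other named members of the 30 included stress and defence genes and genes of unknown function. ERD14 (AT1G76180) and AT1G54410 encode dehydrins, hydrophilic proteins linked to water deficit, and had 2211 and 2531, and 2293 and 2062 RPKM. GAPC2 (AT1G13440), of glycolysis, had 1696 and 1886 RPKM, and AT1G75280, annotated as an NmrA-like protein, 1791 and 1870. GSTF9 (AT2G30860), a glutathione transferase gene, had 1658 and 1264 RPKM. AT1G67865 (uncharacterised), AT1G62480, AT1G09310 and AT3G45160 had mean levels of 3073, 2983, 1755 and 1570 RPKM. TGG2 (AT5G25980), a myrosinase gene of the glucosinolate defence, had 2046 RPKM in replicate 1 and 956 in replicate 2.

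The rank limit itself was narrow. GSTF9, the gene in place 30, had a mean of 1461 RPKM, against 1442 for RD22 (AT5G25610), the next gene. With each library ranked alone, 26 of 30 places and 88 of 100 places were held by the same genes. Abundant genes were short, with a median exon length of 1108 bp for the first 30, 1362 bp for all genes and 1556 bp for genes at 1 RPKM or more. Among the 30, CAB1, LHB1B2 and MT2B were the 3 with under 95% unique reads.

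**Figure D1:**
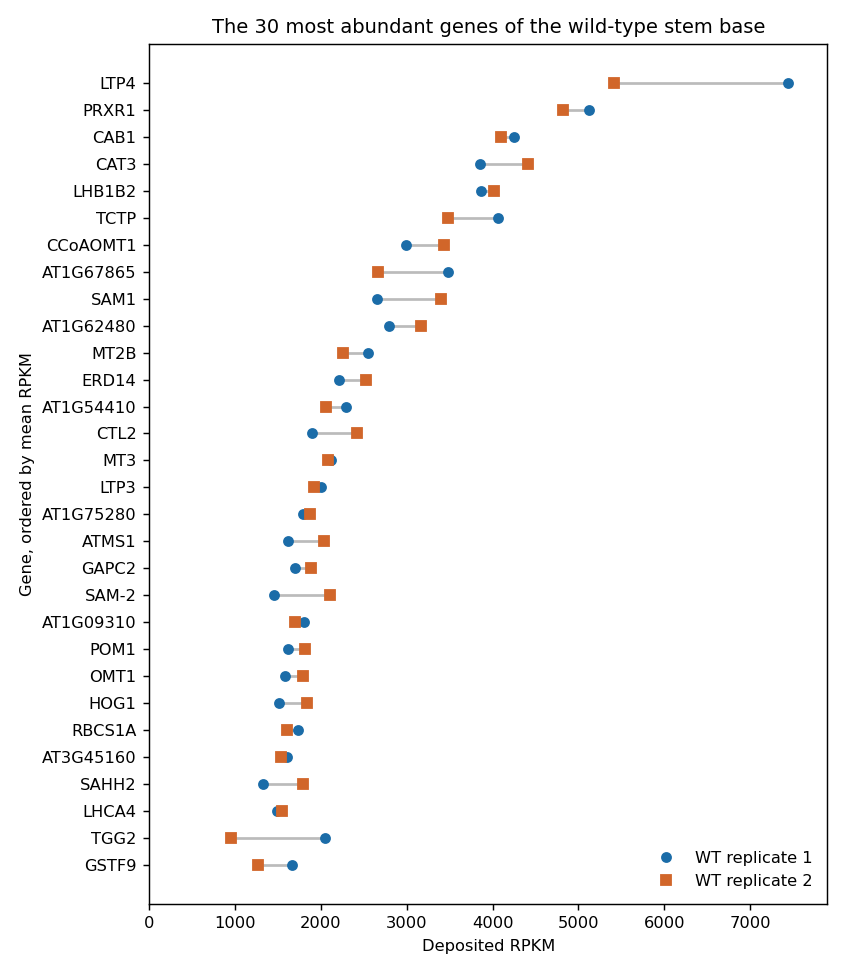
RPKM of the 30 most abundant genes (horizontal axis, linear) in WT replicate 1 (circles) and WT replicate 2 (squares), ordered by their mean; the grey line joins both values. LTP4 lies apart at 7445 and 5413 RPKM, and TGG2 has the widest relative gap, with 2046 and 956.

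Genes that build the secondary wall were among the most strongly expressed lists. The median over the 19 members of the wood wall synthesis list was 321 RPKM, against 4.98 over all genes, and 16 members had at least 100 RPKM. All 19 were above 10 RPKM. The lists here were chosen with earlier results of these data known, and their counts are descriptions.

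CTL2 led the list with 1895 and 2420 RPKM in replicates 1 and 2. FLA11 (AT5G03170) and FLA12 (AT5G60490), for fasciclin-like arabinogalactan proteins of the fibre wall, had 1130 and 1263, and 532 and 619 RPKM. The cellulose synthase genes of the secondary wall followed. CESA4 (AT5G44030) had 826 and 1106 RPKM, a mean of 966 ± 198 (SD, n = 2). CESA7 (AT5G17420) had 516 and 684 RPKM, and CESA8 (AT4G18780) had 519 and 666. CESA4 was above both others in each library, whereas the order of CESA7 and CESA8 differed between the libraries. Of the CESA8 reads 89.5% were uniquely placed.

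Xylan, the main secondary wall hemicellulose, is built by several glycosyltransferases. IRX15 (AT3G50220) and IRX15-L (AT5G67210), needed for full xylan length, had 373 and 435, and 323 and 375 RPKM. IRX10 (AT1G27440), a subunit of the xylan synthase complex, had 268 and 318 RPKM, while its partners IRX9 (AT2G37090) and IRX14 (AT4G36890) had 147 and 188, and 119 and 144. GUX1 (AT3G18660), which adds glucuronic acid, had 196 and 271 RPKM against 34.6 and 44.8 for GUX2 (AT4G33330), the lowest member of the list.

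Primary wall genes were abundant as well. CESA3 (AT5G05170), CESA1 (AT4G32410) and CESA6 (AT5G64740), cellulose synthase genes of the primary wall, had 322 and 361, 209 and 223, and 117 and 115 RPKM. CESA2 (AT4G39350) and CESA5 (AT5G09870), of the same list, had 123 and 124, and 82.5 and 85.3. The summed RPKM of CESA4, CESA7 and CESA8 was 2.87 times that of CESA1, CESA3 and CESA6 in replicate 1 and 3.51 times in replicate 2. CESA2 and CESA5 were left out of that sum, and with them the ratio would be lower. KOR1 (AT5G49720), an endoglucanase of cellulose synthesis, had 833 and 983 RPKM. The list's lowest member was CSI1 (AT2G22125), which links the synthase to microtubules, with 59.3 and 77.3. The median over the 9 primary wall genes was 159.9 RPKM.

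**Figure D2:**
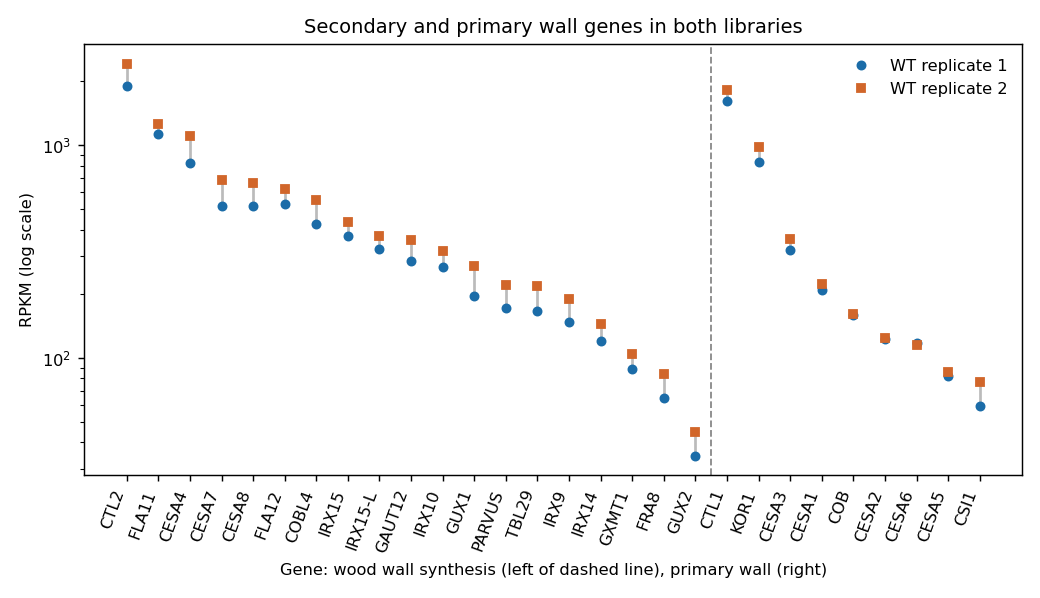
RPKM (vertical axis, log scale) of the wood wall synthesis genes, left of the dashed line, and the primary wall genes, right of it, in WT replicate 1 (circles) and WT replicate 2 (squares). Every one of the 19 wood wall genes is higher in replicate 2, as are 8 of the 9 primary wall genes, though COB, CESA2 and CESA6 nearly coincide.

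Lignin genes had a median of 288 RPKM over 23 members, 16 of them with at least 100 RPKM and 4 with at least 1000. CCoAOMT1 had 2988 and 3433 RPKM and OMT1 1582 and 1795. C4H (AT2G30490) and PAL1 (AT2G37040), which catalyse the first steps of the phenylpropanoid pathway, had 1255 and 1450, and 930 and 1117 RPKM. They were followed by 4CL1 (AT1G51680), a coumarate CoA ligase gene, with 751 and 905, and HCT (AT5G48930), a shikimate ester transferase gene, with 676 and 780.

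Laccases and peroxidases join lignin monomers in the wall, and their genes spanned a wide range. LAC4 (AT2G38080) had 510 and 681 RPKM, LAC17 (AT5G60020) 87.0 and 110, and LAC11 (AT5G03260) 14.9 and 23.9. Of the LAC17 reads only 21.0% were uniquely placed. The peroxidase gene PRX64 (AT5G42180) had 630 and 748 RPKM, but PRX71 (AT5G64120) only 2.18 and 1.99. The lowest member, PRX72 (AT5G66390), had 1 read in replicate 1 and 0 in replicate 2. PRX52 (AT5G05340) was the member that differed most, with 6.90 RPKM in replicate 1 and 1.26 in replicate 2.

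Promoters of these genes are shown because MYB factors of the wood programme, such as MYB46, are known to bind a short element, SMRE, in promoters of wall and lignin genes. The 250 bases before the annotated gene start were read from RefSeq's genome and annotation TAIR10.1 for CESA4, CESA7 and CESA8 and for the 4 most abundant lignin genes. They lie at chr5:17714140-17714389 on the plus strand, chr5:5741501-5741750 on the minus strand and chr4:10316887-10317136 on the minus strand for the cellulose synthases. CCoAOMT1 lies at chr4:16310159-16310408 on the plus strand and OMT1 at chr5:21981652-21981901 on the plus strand. C4H lies at chr2:12996013-12996262 on the minus strand and PAL1 at chr2:15560756-15561005 on the minus strand. Each is written 5′ to 3′ on the gene's strand, and capitals mark SMRE letters on either strand.
CESA4: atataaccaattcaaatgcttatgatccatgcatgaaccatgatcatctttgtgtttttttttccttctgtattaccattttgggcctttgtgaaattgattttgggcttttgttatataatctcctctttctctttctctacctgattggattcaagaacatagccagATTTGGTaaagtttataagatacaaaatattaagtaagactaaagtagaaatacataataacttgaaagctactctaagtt
CESA7: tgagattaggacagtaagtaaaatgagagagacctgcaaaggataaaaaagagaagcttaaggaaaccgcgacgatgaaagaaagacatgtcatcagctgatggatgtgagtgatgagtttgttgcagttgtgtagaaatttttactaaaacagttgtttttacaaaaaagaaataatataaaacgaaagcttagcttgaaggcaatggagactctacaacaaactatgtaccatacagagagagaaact
CESA8: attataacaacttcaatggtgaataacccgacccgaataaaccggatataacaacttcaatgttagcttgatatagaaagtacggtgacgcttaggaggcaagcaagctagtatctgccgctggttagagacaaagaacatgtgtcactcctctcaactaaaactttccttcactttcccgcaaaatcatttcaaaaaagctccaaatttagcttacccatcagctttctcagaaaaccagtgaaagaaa
CCoAOMT1: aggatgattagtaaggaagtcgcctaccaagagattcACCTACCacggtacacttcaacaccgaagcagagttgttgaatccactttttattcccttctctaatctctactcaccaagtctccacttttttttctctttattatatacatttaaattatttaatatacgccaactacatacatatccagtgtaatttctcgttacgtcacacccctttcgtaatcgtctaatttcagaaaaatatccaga
OMT1: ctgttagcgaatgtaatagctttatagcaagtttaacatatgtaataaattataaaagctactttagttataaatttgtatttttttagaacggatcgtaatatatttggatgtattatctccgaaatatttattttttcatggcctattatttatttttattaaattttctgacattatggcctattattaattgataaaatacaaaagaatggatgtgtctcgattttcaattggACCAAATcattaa
C4H: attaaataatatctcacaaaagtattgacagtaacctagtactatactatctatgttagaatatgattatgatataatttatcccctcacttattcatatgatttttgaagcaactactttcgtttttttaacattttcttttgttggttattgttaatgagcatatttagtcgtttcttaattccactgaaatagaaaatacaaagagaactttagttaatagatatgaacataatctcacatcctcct
PAL1: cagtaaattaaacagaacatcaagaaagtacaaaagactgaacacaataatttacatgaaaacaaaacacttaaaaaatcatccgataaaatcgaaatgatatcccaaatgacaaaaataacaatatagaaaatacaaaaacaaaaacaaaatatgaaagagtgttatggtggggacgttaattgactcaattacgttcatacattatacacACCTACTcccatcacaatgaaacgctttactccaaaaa

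SMRE was searched on both strands as ACCNANN, with A or T, A or C, and C or T in place of the N in turn. Some of these spellings overlap the AC elements of lignin genes. CESA4, CCoAOMT1, OMT1 and PAL1 each hold 1 match, and no match lies in the window of CESA7, CESA8 or C4H. Over the lists, 10 of 19 wood wall synthesis genes (52.6%) and 15 of 23 lignin genes (65.2%) had a match. Among the wood regulators 4 of 25 (16%) had one, and in the xylem cell death list 3 of 10 (30%). Lists outside wood ranged from 7.14% (stomata, 1 of 14) to 50% (starch sheath and root, 3 of 6 each, and seed, 2 of 4). The clock, flavonoid and wax and cutin lists each had 40%. Of all 26706 promoters of this length 29.4% had a match, as did 29.6% of those of genes at 1 RPKM or more. A match is a description of letters, not a bound site.

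Known short elements were counted in the same way for the other lists. The I-box, GATAAG, which is common in light-regulated promoters, was found for 9 of 35 green cortex genes (25.7%), against 12.2% of all promoters. The G-box, CACGTG, bound by several factor families, was found for 5 of 15 flavonoid genes (33.3%), against 6.58% of all. It was also found for 5 of 10 clock genes (50%), 2 of 5 heat shock genes (40%) and 2 of 4 seed genes (50%), and the I-box for 2 of 6 root genes (33.3%). The L1 box, searched as TAAATG followed by CA or TA and known to be bound by epidermal homeobox factors, was found for 3 of 10 epidermal identity genes (30%), against 4.51% of all. Stomata genes held it in 3 of 14 (21.4%) and cell division genes in 1 of 9 (11.1%). Wax and cutin genes and the 30 most abundant genes held it in 3 of 30 each (10%), and phloem genes in 0 of 26.

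The regulators of wood formation had lower levels than the enzymes, with a median of 31.1 RPKM over 25 members. KNAT7 (AT1G62990), a homeobox factor of secondary walls, had 183 and 223 RPKM, and MYB103 (AT1G63910), a MYB factor tied to syringyl lignin, 166 and 207. NST3 (AT1G32770), the NAC switch of fibres, had 149 and 191 RPKM, and its relatives NST1 (AT2G46770) and NST2 (AT3G61910) 41.3 and 45.7, and 18.7 and 22.9. SND2 (AT4G28500), MYB63 (AT1G79180) and MYB43 (AT5G16600) had 127 and 163, 78.6 and 88.9, and 58.9 and 62.6 RPKM. MYB46 (AT5G12870), a master MYB factor, had 39.3 and 46.8, and its close relative MYB83 (AT3G08500) 3.50 and 3.76.

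The NAC switches of vessels, the VND family, were all lower than NST3. VND4 (AT1G12260) and VND5 (AT1G62700) had 12.8 and 17.64, and 12.2 and 15.2 RPKM. VND6 (AT5G62380) had 3.57 and 4.22, and VND7 (AT1G71930) 1.18 and 1.62. The lowest member of the list was VND1 (AT2G18060), with 0.989 and 1.21. All 25 regulators had a mean of at least 1 RPKM.

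The list for the programmed death of xylem cells had a median of 55.8 RPKM over 10 members. It also holds ACL5 and the genes TED6 and TED7, annotated as related to tracheary element differentiation. XCP2 (AT1G20850) and XCP1 (AT4G35350), cysteine proteases of vessel autolysis, had 486 and 698, and 104 and 164 RPKM. TED6 (AT1G43790), a protein that binds the secondary wall cellulose synthase, had 393 and 541. ACL5 (AT5G19530), for thermospermine synthesis, had 85.8 and 82.2 RPKM and was the only member higher in replicate 1. RNS3 (AT1G26820), a ribonuclease gene, had 53.5 and 69.0, XSP1 (AT4G00230), a subtilase gene, 39.6 and 61.3, and the lowest, CEP1 (AT5G50260), 2.96 and 3.19.

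The cambium list was lower than the wall genes, with a median of 30.8 RPKM over 22 members, all of them above 1 RPKM. Of the 21 members with at least 100 reads, 14 were higher in replicate 1, where 59.97% of all genes were. None was past 2-fold. ATHB-15 (AT1G52150), an HD-ZIP III factor of vascular patterning, had 122 and 131 RPKM. PXY (AT5G61480), the receptor of the cambium peptide TDIF, had 111 and 117, and CLE41 (AT3G24770), which encodes that peptide, 61.7 and 53.5. KNAT1 (AT4G08150), a KNOX homeobox gene, had 108 and 109 RPKM. PXC1 (AT2G36570), a receptor-like kinase gene of secondary wall formation, had 95.8 and 103, and PHB (AT2G34710), of the HD-ZIP III family, 44.8 and 51.2.

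WOX4 (AT1G46480), the homeobox target of PXY signalling, had 27.1 and 26.9 RPKM, a log2 ratio well within the SD of genes at such depth. The kinase genes RUL1 (AT5G05160) and MOL1 (AT5G51350), known as promoter and repressor of cambium activity, had 27.8 and 22.8, and 9.75 and 9.43 RPKM. LBD1 (AT1G07900) was the lowest of the list with 1.27 and 1.10. The log2 ratio between the libraries lay within -0.19 to 0.46 for the 21 members with at least 100 reads.

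Cell division genes had a median of 11.9 RPKM over 9 members. CDKA;1 (AT3G48750), the cyclin-dependent kinase of the whole cycle, had 67.1 and 65.2 RPKM, and HIS4 (AT2G28740), a histone H4 gene, 55.7 and 46.4. CYCD3;1 (AT4G34160), a cyclin of cambial division, had 33.9 and 29.9, and KN (AT1G08560), a syntaxin of the cell plate, 20.7 and 16.8. CDKB2;1 (AT1G76540) and CDKB1;1 (AT3G54180), kinases of mitosis, had 13.5 and 10.3, and 7.48 and 5.16. The lowest was CYCB1;1 (AT4G37490), a mitotic cyclin, with 2.24 and 1.57 RPKM.

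Phloem genes covered a range from 0.0542 to 202 RPKM, with a median of 6.38 over 26 members. Of these, 21 had at least 1 RPKM, 11 at least 10 and 2 at least 100. PP2-A1 (AT4G19840), a phloem lectin gene, had 198 and 205 RPKM, and SUC2 (AT1G22710), the sucrose loader of companion cells, 140 and 183. SEOa (AT3G01670) and SEOR1 (AT3G01680), whose proteins form filaments in sieve elements, had 72.2 and 92.9, and 57.4 and 67.1 RPKM. AKT2 (AT4G22200), a potassium channel gene, had 46.4 and 44.3, and AHA3 (AT5G57350), a proton pump gene of companion cells, 31.4 and 32.8.

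The regulators of phloem identity named here were lower than these 6 highest members, except SMXL5, which was level with AHA3. Members that are not regulators were low as well, such as SUS6 (AT1G73370) and CALS7 (AT1G06490), with means of 11.8 and 5.21 RPKM. APL (AT1G79430), a MYB-type factor needed for phloem, had 10.05 and 8.00 RPKM. NAC045 (AT3G03200) and NAC086 (AT5G17260), which direct the loss of the nucleus in sieve elements, had 1.24 and 0.877, and 0.759 and 1.15. SMXL5 (AT5G57130) had 31.6 and 31.4 RPKM, and its relatives SMXL3 (AT3G52490) and SMXL4 (AT4G29920) 5.10 and 5.14, and 4.84 and 5.05.

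The sucrose exporters of leaf phloem were near the bottom of the list. SWEET11 (AT3G48740) had 39 reads in replicate 1 and 1 in replicate 2, or 0.9504 and 0.0268 RPKM. SWEET12 (AT5G23660) had 1.46 and 0.193 RPKM. FT (AT1G65480), the mobile flowering signal, had 0.224 and 0.123, and CLE45 (AT1G69588), a peptide gene, 3 reads and 0 reads, none of them uniquely placed.

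**Figure D3:**
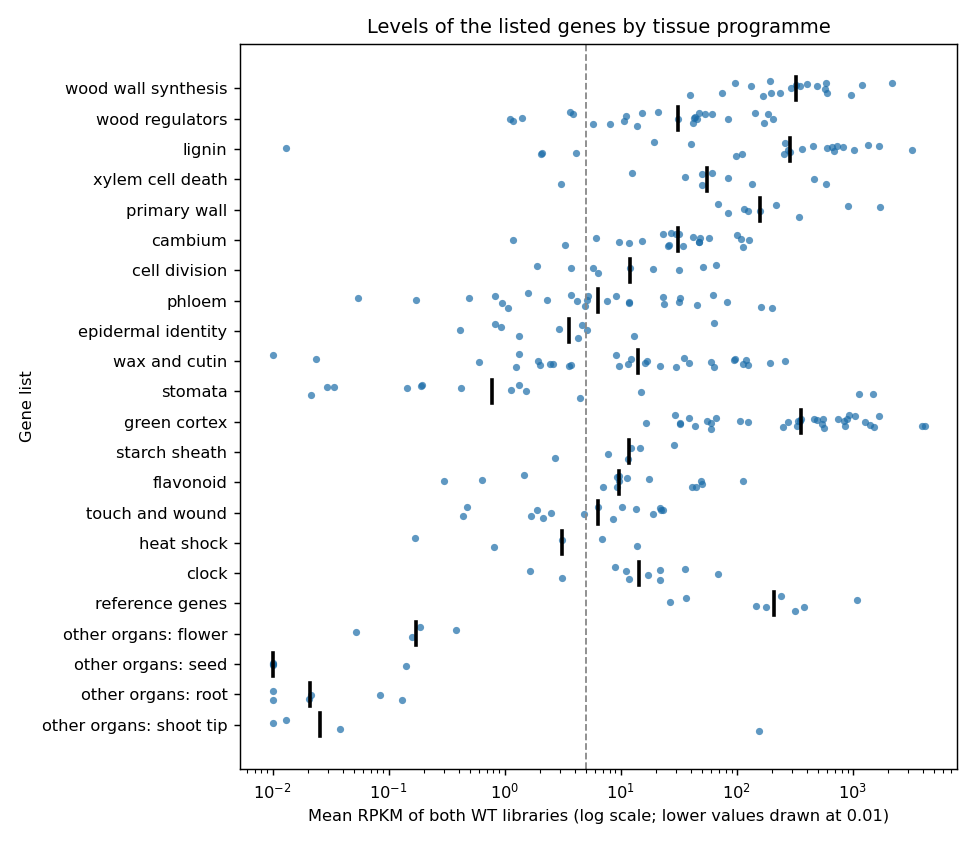
Mean RPKM of both WT libraries (horizontal axis, log scale) for each listed gene (points), by list, with the list median as a black bar and the median of all genes, 4.98, as a dashed line. Green cortex, wood wall synthesis and lignin have the highest medians, at 360, 321 and 288 RPKM, and values under 0.01 are drawn there.

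Epidermal identity genes had lower levels than wax and cutin genes. The median was 3.61 RPKM over 10 identity genes and 14.1 over 30 wax and cutin genes. ATML1 (AT4G21750) and PDF2 (AT4G04890), the homeobox factors that define the epidermis, had 4.14 and 4.37, and 5.08 and 5.08 RPKM. FDH (AT2G26250), a fatty acid elongase gene, led the identity list with 63.6 and 63.7 RPKM. Other members included ANL2 (AT4G00730) and HDG2 (AT1G05230), both HD-ZIP IV factors with 13.6 and 12.4, and 4.37 and 4.82, and GL2 (AT1G79840) with 3.49 and 2.43. HDG12 (AT1G17920) was lowest at 0.510 and 0.318.

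In the wax pathway, MAH1 (AT1G57750), which makes secondary alcohols and ketones of stem wax, had 267 and 249 RPKM. CER6 (AT1G68530), an elongase gene, had 186 and 204, and CER3 (AT5G57800) and CER1 (AT1G02205), which act together in alkane formation, 123 and 128, and 113 and 114. DEWAX (AT5G61590), a repressor of wax genes, had 107 and 132 RPKM, and CYP86A2 (AT4G00360), a cutin hydroxylase gene, 99.5 and 92.1. Of the list, 27 of 30 members had at least 1 RPKM and 5 had at least 100. The lowest, SHN1 (AT1G15360), an activator of cuticle genes, had 0 reads in both libraries, where 3 reads would give 0.114 and 0.126 RPKM.

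Lipid transfer protein genes differed greatly from each other. LTP1 (AT2G38540), a classical epidermal marker, had 13.6 and 4.42 RPKM, and LTP2 (AT2G38530) had 1 read in replicate 1 and 0 in replicate 2. LTP4 and LTP3, with mean levels of 6429 and 1960 RPKM, were not in the list and were named by their rank.

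Few genes of young stomata were present. The lineage factors SPCH (AT5G53210) and MUTE (AT3G06120), which start and advance stomatal development, had 2 and 0, and 0 and 1 reads. FAMA (AT3G24140), which ends the lineage, had 6.09 and 2.84 RPKM. KAT1 (AT5G46240) and SLAC1 (AT1G12480), ion channel genes of guard cells, had 14.4 and 15.5, and 1.73 and 1.34 RPKM, and MYB60 (AT1G08810), a guard cell factor, 1.37 and 1.28. The myrosinase genes TGG1 (AT5G26000) and TGG2, which guard cells and myrosin cells express, had 1542 and 735, and 2046 and 956 RPKM. The list's median was 0.778 RPKM over 14 members.

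The green cortex list had the highest median, 360 RPKM over 35 members, all above 10 RPKM and 25 of them above 100. CAB1 had 4251 and 4092 RPKM and LHB1B2 3860 and 4018. RBCS1A had 1734.9 and 1608, and LHCA4 1487 and 1541 RPKM. PSBR (AT1G79040), a photosystem II subunit gene, had 1432 and 1392, and LHCB5 (AT4G10340), a minor antenna gene, 1283 and 1258. Light-harvesting genes share reads: 78.7% of the CAB1 reads and 75.4% of the reads of its near copy CAB2 (AT1G29920) were uniquely placed, so the split between copies is uncertain.

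LHB1B1 (AT2G34430), of the same antenna family, had only 52.0 and 25.3 RPKM. Carbon fixation genes also spanned a wide range. RCA (AT2G39730), the Rubisco activase gene, had 492 and 497 RPKM, GAPA (AT3G26650), of the Calvin cycle, 283 and 274, and PRK (AT1G32060), of the same cycle, 111 and 102. SBPASE (AT3G55800), also of that cycle, had 31.8 and 32.7 RPKM. Beside RBCS1A, the other Rubisco small subunit genes had 283 and 214 (RBCS3B, AT5G38410), 53.5 and 33.7 (RBCS2B, AT5G38420) and 34.7 and 24.4 RPKM (RBCS1B, AT5G38430). Of the reads of RBCS3B, RBCS2B and RBCS1B only 69.1%, 66.6% and 55.5% were uniquely placed, so their levels are uncertain too. CA1 (AT3G01500), a carbonic anhydrase gene abundant in leaves, was the lowest member, with 28.5 and 4.48 RPKM.

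The starch sheath, the innermost cortex layer that senses gravity, had a list median of 11.8 RPKM over 6 members. PIN3 (AT1G70940), an auxin exporter gene, had 28.2 and 29.5 RPKM, and SHR (AT4G37650) and SCR (AT3G54220), the factors that specify the layer, 14.5 and 14.9, and 3.17 and 2.27. GBSS1 (AT1G32900), a starch synthase gene, had 13.3 and 11.1, SCL23 (AT5G41920) 11.3 and 11.6, and IDD15 (AT2G01940), a factor of shoot gravitropism, 7.17 and 8.46.

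Markers of other organs were near 0 with 1 exception. The 6 root genes summed to 0.275 and 0.237 RPKM in replicates 1 and 2, and RHD6 (AT1G66470) and COBL9 (AT5G49270), of root hairs, had no read. The 4 seed genes had 9 reads in replicate 1 and 0 in replicate 2, with none for the storage protein genes CRU3 (AT4G28520) and SESA1 (AT4G27140). The 4 flower genes with a row, AP1, AP3, PI and AG, had 55 reads in replicate 1 and 3 in replicate 2, or 1.47 and 0.0857 RPKM in sum. SEP3 (AT1G24260), the other member, was not analysed here.

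Among shoot tip genes, STM (AT1G62360), a KNOX homeobox factor known for maintaining the shoot meristem, had 161 and 152 RPKM and ranked 665 of all genes. CLV3 (AT2G27250), WUS (AT2G17950) and LFY (AT5G61850), which mark the meristem centre and young flowers, had 0, 1 and 3 reads in replicate 1 and none in replicate 2.

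Of the genes whose RefSeq description holds the words transcription factor, the most abundant was AT1G06760, which encodes a linker histone, with 338 and 334 RPKM. AT2G30620, of the same histone family, had 134 and 146. WLIM2b (AT3G55770), a LIM-domain protein gene, had 205 and 208 RPKM, STM was next, and WRKY12 (AT2G44745), a repressor of secondary walls in pith, had 157 and 140. BTF3 (AT1G17880) had 140 and 112, and AT5G07580, an ethylene-responsive factor, 119 and 126. RGA1 (AT2G01570), a DELLA repressor of gibberellin response, had 100.1 and 108 RPKM, AT1G19960 127 and 77.7, and AT4G15545 98.7 and 95.5. KNAT7, MYB103 and NST3, given with the wood regulators, have other descriptions and were not eligible.

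Genes that respond within minutes to touch or wounding were low to moderate, with a median of 6.39 RPKM over 15 members and a highest mean of 23.0. TCH3 (AT2G41100) and TCH2 (AT5G37770), for calmodulin-like proteins, had 22.3 and 23.6, and 22.3 and 22.5 RPKM. CZF1 (AT2G40140) and ZAT10 (AT1G27730), zinc finger genes of stress, had 20.8 and 23.1, and 18.1 and 19.7. ERF1A (AT4G17500) and ERF104 (AT5G61600), both ethylene response factors, had 16.0 and 11.1, and 7.39 and 13.1. JAZ7 (AT2G34600), a jasmonate repressor gene, was lowest with 0.519 and 0.363 RPKM.

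Heat shock genes had a median of 3.09 RPKM over 5 members. HSP18.2 (AT5G59720) had 15.8 and 11.7 RPKM, HSP101 (AT1G74310) 6.75 and 6.95, and HSP17.4 (AT3G46230) 2.60 and 3.59, all of them chaperones. HSFA2 (AT2G26150), a heat shock factor, had 1.12 and 0.493, and HSP17.6II (AT5G12020) 3 and 4 reads.

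Clock genes were read at an unstated time of day. PRR7 (AT5G02810), a morning repressor, had 64.1 and 73.1 RPKM, CCA1 (AT2G46830) and LHY (AT1G01060), which peak around dawn, 34.7 and 36.6, and 20.1 and 23.3. GI (AT1G22770) had 20.1 and 23.8, PRR9 (AT2G46790) 17.396 and 16.8, and ELF3 (AT2G25930) 11.2 and 12.3. The evening gene ELF4 (AT2G40080) was lowest, with 1.70 and 1.59 RPKM.

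Reference genes give a scale for these levels. UBQ10 (AT4G05320) had 1097 and 1076 RPKM, ACT2 (AT3G18780) 373 and 383, GAPC1 (AT3G04120) 326 and 303, and EIF4A1 (AT3G13920) 251 and 231. YLS8 (AT5G08290) had 182 and 176, UBC9 (AT4G27960) 147 and 147, and TIP41 (AT4G34270), the lowest, 28.0 and 25.1. Their log2 ratios between the libraries lay between -0.04 and 0.16.

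Both libraries ranked genes alike. Spearman's rank correlation of RPKM was 0.988 across 27200 genes, which are not independent replicates. Over the 16943 genes with at least 100 exon reads in both libraries together and reads in each, the log2 ratio of replicate 1 over replicate 2 had a median of 0.05 and an SD of 0.32. Its 5th and 95th percentiles were -0.34 and 0.50. Sampling noise alone would give a chi-square near its degrees of freedom, and the ratio of the former to the latter was 28.9 over 19692 genes. The tables are thus not copies of the same library.

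The spread was wider than counting alone gives at every depth. For genes with 100 to 1000 reads the SD of the log2 ratio was 0.41, against 0.16 from counting. It was 0.23 against 0.06 for 1000 to 10000 reads, and 0.31 against 0.02 for the 995 genes above 10000 reads. These counting values treat reads as independent molecules.

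Larger differences were mostly higher in replicate 1. Past 2-fold, 191 of 16943 genes (1.13%) were higher in replicate 1 and 36 (0.212%) in replicate 2. With 1 library on each side there is no test of any gene, and these are counts past a fold. Genes above 0 on the log2 scale numbered 10160, and 6783 (40.0%) were below.

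**Figure D4:**
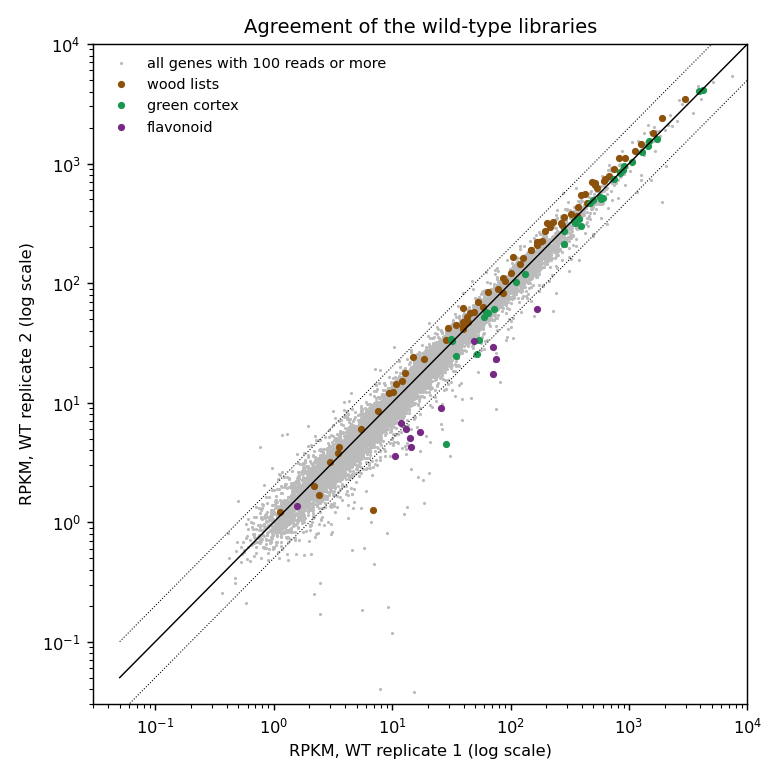
RPKM in WT replicate 2 (vertical axis) against WT replicate 1 (horizontal axis), both on log scales, for genes with at least 100 reads over both libraries; the solid line marks equality and dotted lines 2-fold. Most wood genes (brown) lie just above equality, with PRX52 past 2-fold toward replicate 1. Flavonoid genes (purple) mostly lie past 2-fold toward replicate 1, and the green cortex genes (green) follow the line with CA1 as the farthest, at 28.5 and 4.48.

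Wood genes leaned together toward replicate 2. Across the 4 wood lists, 70 of 74 members with at least 100 reads were higher in replicate 2, where 40.0% of all genes were, and the median was 1.20-fold. None of the 70 was past 2-fold. All 19 wood wall synthesis genes and all 23 regulators with enough reads were higher in replicate 2, with median log2 ratios of -0.35 and -0.24. The 77 members held 3.33% of the summed RPKM in replicate 1 and 4.18% in replicate 2. The lean was not limited to wood. Of the members with at least 100 reads, 8 of 9 primary wall genes and 13 of 19 phloem genes were also higher in replicate 2. Their median log2 ratios were smaller, at -0.09 and -0.06. In the cambium list 7 of 21 were higher in replicate 2.

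Flavonoid genes leaned the other way, and by more. All 13 members with enough reads were higher in replicate 1, 10 of them past 2-fold, against 1.13% of all genes, and the median log2 ratio was 1.48. TT4 (AT5G13930), chalcone synthase, the entry enzyme of flavonoid synthesis, had 165 RPKM in replicate 1 and 60.2 in replicate 2. DFR (AT5G42800) and LDOX (AT4G22880), of the anthocyanin branch, had 75.8 and 23.0, and 70.9 and 17.3 RPKM. GSTF12 (AT5G17220), which carries anthocyanins to the vacuole, had 71.5 and 29.1, UGT78D2 (AT5G17050), a glucosyltransferase gene, 49.2 and 33.0, and UGT75C1 (AT4G14090) 25.7 and 9.03. MYB12 (AT2G47460) and MYB111 (AT5G49330), regulators of flavonols, had 0.615 and 0.652, and 0.195 and 0.402 RPKM.

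Among genes with a mean of at least 10 RPKM, those most different toward replicate 1 included jasmonate and defence genes. PDF1.2b (AT2G26020), a defensin gene, had 31.0 and 3.59 RPKM, and VSP2 (AT5G24770), a storage protein gene induced by jasmonate, 74.7 and 8.86. The PDF1.2b values rest on 266 and 28 reads over 274 bp of exon, with 78.6% of these reads uniquely placed. NATA1 (AT2G39030), an acetyltransferase gene of defence, had 18.3 and 2.26, and AT1G49500 20.3 and 2.59. CA1 also belonged to this set, at 6.36-fold. HMT3 (AT3G22740), for methionine synthesis, had 81.8 and 14.7 RPKM, BAM5 (AT4G15210), a beta-amylase gene, 38.7 and 7.08, and AT1G06620, an oxygenase gene, 20.8 and 4.64.

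Toward replicate 2 the differences were smaller. MIOX2 (AT2G19800), an inositol oxygenase gene known from sugar starvation, had 10.4 and 29.4 RPKM, a fold of 2.82. AZI1 (AT4G12470), of systemic defence priming, had 7.11 and 19.0, and GolS2 (AT1G56600), of galactinol synthesis, 7.94 and 18.6. AT5G18840, a transporter gene, had 20.5 and 46.4, PP2-A13 (AT3G61060) 46.8 and 103, and AT5G03545, a phosphate starvation transcript, 39.3 and 81.9. Of the PP2-A13 reads 64.5% were uniquely placed. ERD5 (AT3G30775), a proline dehydrogenase gene, had 279 and 572 RPKM, and AT2G24592, annotated as an other RNA, 6.87 and 13.96. The last rests on only 20 and 37 reads over 93 bp of exon.

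Reads of flower markers were more frequent in replicate 1. The flower genes had 55 reads in replicate 1 and 3 in replicate 2, and the seed genes 9 and 0, of which OLEO1 (AT4G25140), an oil body protein gene, gave 8. The root genes had 12 and 10 reads. PDF1 (AT2G42840), an epidermal marker of young organs, had 2.47 and 0.169 RPKM. Its list as a whole was divided, with 5 members higher in replicate 1 and 4 in replicate 2 among those with enough reads. The defining shoot tip genes CLV3, WUS and LFY stood at 0 to 3 reads. The part of such tissue in the differences was not tested.

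In the stomata list only some members leaned toward replicate 1. Of the 5 members with enough reads, 4 were higher in replicate 1, where 59.97% of all genes were. TGG1, TGG2 and FAMA, 3 of the 5, were past 2-fold toward replicate 1, against 1.13% of all genes. The median log2 ratio was 1.07. The guard cell channel genes SLAC1 and KAT1 were not past 2-fold, with log2 ratios of 0.37 and -0.10. KAT1 was the member higher in replicate 2.

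Several other tissue lists had smaller median ratios. The median log2 ratio was 0.06 for cambium, -0.06 for phloem, 0.07 for wax and cutin and 0.10 for the green cortex. In the green cortex 25 of 35 members were higher in replicate 1, where 59.97% of all genes were, and 2 were past 2-fold, CA1 and LHB1B1. All 9 cell division genes were higher in replicate 1, with a median of 0.26. Scaling by the median of ratios moves every gene by 0.06 on the log2 scale toward replicate 2, and these counts were then 18 of 35 and 8 of 9. For touch and wound genes the median was -0.12, with 9 of 13 higher in replicate 2 and none past 2-fold.

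**Figure D5:**
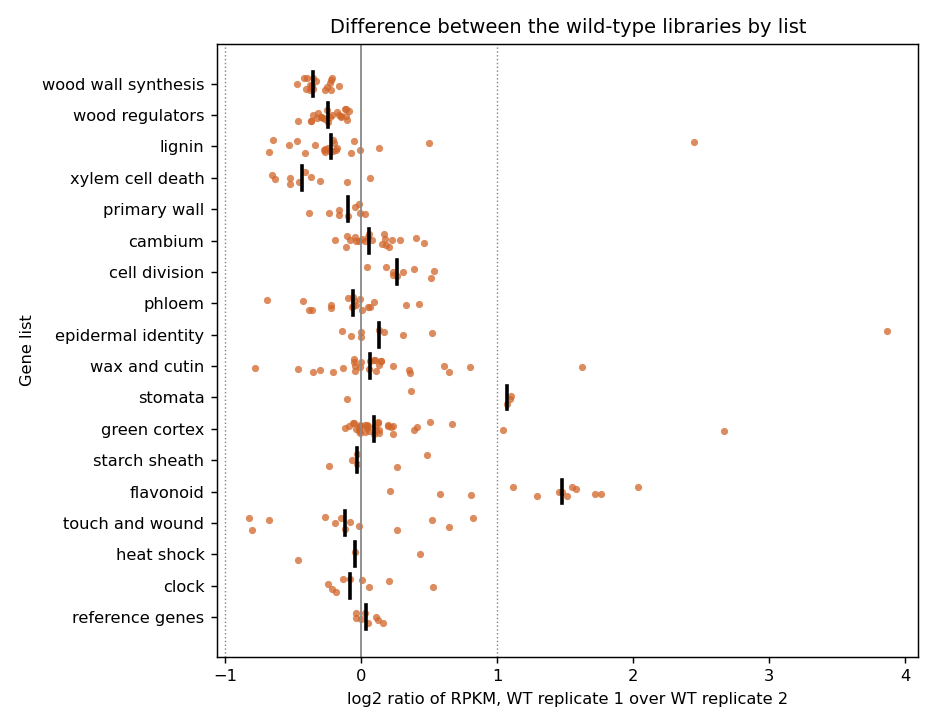
Log2 ratio of RPKM, WT replicate 1 over WT replicate 2 (horizontal axis), for members with at least 100 reads over both libraries (points), by list, with the median as a black bar and dotted lines at 2-fold. The wood lists have medians below 0, as do the primary wall, phloem, starch sheath, touch and wound, heat shock and clock lists. The flavonoid and stomata lists have medians of 1.48 and 1.07. Their members past 2-fold toward replicate 1 number 10 of 13 and 3 of 5, against 1.13% of all genes.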

How the data were processed

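RNA sequencing tables of the WT libraries (2, described) were used, and those of the mutant were not. Per the file headers, the deposited tables give whole-number read counts per locus (total and unique reads in genes, exons, junctions and introns) and RPKM. Recomputing showed that the authors divided total exon reads by exon length in kilobases and by total gene reads per 1000000 to obtain RPKM. The submitters' processing notes give TAIR10 as build. Aligner, counting method, filters and strandedness: not given in the sources used here. Reads of overlapping genes on opposite strands therefore may not be separated.

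Of 33323 rows per table, 5 without a locus name (0.0808% and 0.0586% of exon reads) and 6118 without an exon length were left out. Of 27198 loci, 2 appear in more than 1 row, each kept. Symbols, descriptions and promoters come from RefSeq TAIR10.1. Of 310 list members, 309 had a row, and 4 list names differ from the RefSeq symbols and synonyms.

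Python 3.11.15, pandas 2.3.3, numpy 2.4.6, scipy 1.17.1 and matplotlib 3.10.9 were used. No test between groups was run. Ratios between the libraries used genes with at least 100 total exon reads. The 8 most different genes per direction needed a mean of 10 RPKM instead. The ratio script was tested on simulated counts. Members and the 22 lists were chosen with earlier results of these data known. The genes named are the 30 most abundant, up to 6 highest members and the lowest of each list, the 8 per direction most different between the libraries at 10 RPKM or more, and the 10 highest genes described as transcription factors. Others were chosen after their values were seen. Alternatives were unique reads, TPM, other thresholds and filters, another scaling and each library alone. Depth was 31323382 and 28504743 total gene reads. Intervals from counts cover counting error only.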

Additional observations from a re-analysis of the deposited data

Results flagged for a closer look

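Reads outside the genes used were above the limit that a count of 0 allows (3 reads). Of the 6118 named loci without an exon length, 671 held more than 3 gene reads in both libraries. Together these 6118 loci held 285804 and 274127 gene reads, or 0.912% and 0.962% of all gene reads, in replicates 1 and 2. Among the 5 rows without a locus name, the largest mean RPKM was 281, from 337 and 225 RPKM (18577 and 11277 reads). No gene can be given to that row.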

How the results depend on the processing

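Of 46 alternative values for 9 results, 14 moved by more than the spread of the libraries (or 1.5-fold for counts). Several others could not move by construction, such as the rank correlation and the SD of log2 ratios under TPM or another scaling, and say nothing of stability. The count of genes at 1 RPKM or more was 17292 to 18059 over unique reads, TPM (at 1 TPM) and each library alone, and 18415 and 16139 genes passed 0.5 and 2 RPKM. TPM, which rescales every level, gave list medians of 487 for wood wall synthesis, 9.65 for phloem, 21.4 for wax and cutin and 544 for the green cortex. Leaving out members under 1 RPKM gave medians of 11.8 for phloem and 16.9 for wax and cutin. With 1 library left out, the share of the 30 most abundant genes was 11.5% to 11.8%, and the medians were 284 to 358 (wood wall synthesis), 6.20 to 6.88 (phloem), 14.2 to 15.2 (wax and cutin) and 343 to 397 RPKM (green cortex). Spearman's rank correlation was 0.989 with unique reads and 0.982 with at least 1000 reads. The SD of log2 ratios was 0.24 with no filter and a pseudocount of 1, and 0.24 with at least 1000 reads, where 67 genes in place of 227 were past 2-fold. No paired analysis was possible because no groups were compared. Depth limits low genes most: 1 RPKM over 1000 bp of exon rests on 31.3 and 28.5 reads.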

Other observations

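The genes below were chosen after their values were seen. MS2 (AT3G11980), a fatty acyl reductase gene known from the tapetum of anthers, had 1066 and 1521 RPKM and ranked 36 of all genes, with 14872 and 20447 reads over exon junctions and 99.99% unique reads. Other tapetum genes were at or near 0: AMS (AT2G16910) had 51 and 8 reads, CYP704B1 (AT1G69500) 10 and 2, and MS1 (AT5G22260) and CYP703A2 (AT1G01280) 0 in both libraries.

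A few genes were found almost only, or at far higher levels, in replicate 1. AT1G14250 had 878 reads there and 2 in replicate 2, and ESM1 (AT3G14210), a modifier of glucosinolate breakdown, 466 and 5. LOX2 (AT3G45140), a lipoxygenase gene of jasmonate synthesis, had 806 and 65 reads, or 9.07 and 0.804 RPKM. ESP (AT1G54040), also of glucosinolate breakdown, had 311 and 18 reads, or 7.05 and 0.448 RPKM. AT5G52160 and AT1G44970 had 159 and 180 reads in replicate 1 and 0 in replicate 2, and were not among the 16943 genes with a ratio. The strongest differences toward replicate 2 among genes with at least 100 reads were RAP2.6 (AT1G43160), an ethylene response factor gene, with 0.772 and 4.24 RPKM, and AT1G02070, with 1.16 and 5.34. No explanation was tested.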
